A study of Mus musculus with 6 samples.

Results

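The 4 genes described here are Chil1, Chil3, Chil4 and Chia1, the members of the mouse chitinase family that have been studied most in the lung. They were chosen by symbol, after the Ensembl identifiers of the matrix had been matched to the GENCODE annotation of GRCm38, and are 4 of its 52636 genes. Levels were read in every library and, within 2 of the libraries, in cells with little or much Retnla transcript.

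The study, by its title, concerned how alveolar type II (ATII) cells, the surfactant-making stem cells of the lung alveolus, respond to interleukin 4 (IL-4) as mice age. Per the labels there were 3 expression libraries and 3 tag libraries, 1 of each per group: freshly sorted ATII cells of young and old mice (day 0), and cells of young and old mice, or of young mice alone, grown without serum or feeder cells into alveolarspheres until day 13. All mice carried a wild-type IL4Ra, the IL-4 receptor gene, and cultured wells received cytokine at 10 ng/ml or PBS on day 3. The treatment given for each library is a mixed sample, and the design text writes IL14 where the title has IL-4.

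The deposited matrix holds counts of unique molecular identifiers (UMIs, 1 per captured RNA molecule) for 36584 barcodes with 3 library prefixes. No prefix matches a label and 0 features are tags, so no cell was assigned to a day, age or treatment, and none of those comparisons could be made. They are named A, B and C below, by their first appearance among the barcodes, which says nothing of their group. Filters kept 16367, 5593 and 14580 cells with 63658436, 48676834 and 53329664 UMIs, at medians of 3749, 8349 and 3341 UMIs per cell. Libraries A and B shared 20 barcode sequences, A and C 67, and B and C 22. All 10 ATII markers checked, led by the surfactant gene Sftpc, were at 20 counts per 1000000 UMIs (CPM) or more in every library. Each library is 1 sample, so no p-value is given, and every interval is an exact 95% interval that covers counting error only.

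Mammalian chitinases are secreted enzymes that cut chitin, the polymer of N-acetylglucosamine found in fungal walls, mites, insects and worms. Chia1, acidic mammalian chitinase, is such an enzyme, and in mice it clears inhaled chitin from the airways. Chil1, Chil3 and Chil4 belong to the same fold family but have lost the catalytic residues: they bind sugars without cutting them. In mouse lung IL-4 and IL-13, acting through IL4Ra and the transcription factor STAT6, are known inducers of Chia1, Chil3 and Chil4 and of Retnla, a small secreted protein of the resistin family, while Chil3 is also known as an abundant product of alveolar macrophages.

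Per the GRCm38 annotation, Chia1 (ENSMUSG00000062778) spans chr3:106113229-106132120 on the plus strand. Chil3 (ENSMUSG00000040809) at chr3:106147554-106167564 and Chil4 (ENSMUSG00000063779) at chr3:106201490-106219507 follow it on the minus strand. Chil1 (ENSMUSG00000064246) lies apart at chr1:134182176-134190181, on the plus strand, and Retnla (ENSMUSG00000061100) at chr16:48842551-48844461, also on the plus strand.

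The stretches before the start sites of Chil3, Chil4 and Retnla are shown because Chil3 and Chil4 are close paralogs there and because all 3 hold a motif of the kind that STAT proteins bind. Each runs 5′ to 3′ over 150 bases, beginning at base -250 before the RefSeq start (GRCm38.p6), with the motif in capitals. Chil3 is at chr3:106167665-106167814 and Chil4 at chr3:106219580-106219729, both on the minus strand, and Retnla is at chr16:48842359-48842508 on the plus strand.
Chil3: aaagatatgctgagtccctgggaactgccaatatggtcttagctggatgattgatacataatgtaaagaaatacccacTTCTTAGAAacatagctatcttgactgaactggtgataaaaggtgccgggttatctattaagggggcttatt
Chil4: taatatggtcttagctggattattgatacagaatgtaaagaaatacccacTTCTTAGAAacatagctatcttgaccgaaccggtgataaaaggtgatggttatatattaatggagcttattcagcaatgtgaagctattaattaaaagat
Retnla: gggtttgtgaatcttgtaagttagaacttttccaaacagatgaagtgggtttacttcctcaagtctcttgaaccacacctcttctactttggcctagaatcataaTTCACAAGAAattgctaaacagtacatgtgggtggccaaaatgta
The 2 motifs searched were TTC and GAA with any 4 bases between them, the longer motif, and TTC and GAA with any 3 bases between them, the shorter one. Each is its own reverse complement, so that both strands were covered. The shorter motif occurred as TTCTTAGAA at position -172 of Chil3 and position -200 of Chil4, inside a shared run, and the longer motif occurred as TTCACAAGAA at position -145 of Retnla. Neither was found in the 250 bases before the RefSeq start of Chil1 or Chia1. RefSeq starts differ from the spans given above. The 250 bases searched for Chia1, chr3:106113132-106113381, lie partly inside its span, as do those for Chil4 and Retnla. Among 32851 promoters of that length, 5.85% held the longer and 7.02% the shorter motif. Chil3 and Chil4 were 72.0% identical over these 250 bases, with a longest identical run of 44 bases, whereas the other pairs among the 4 genes were 42.7% to 55.4% identical. A match describes letters only and is no evidence of binding.

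The paralogy also bears on the counts, which come from reads near the 3′ end of each RNA. Over the last 500 transcript bases, Chil3 and Chil4 were 91.8% identical, with a longest identical run of 126 bases. Of 411 windows of 90 bases in that stretch, 37 of Chil3 also occurred in Chil4, and 43 of Chil4 also occurred in Chil3 or in Gm6522. No such window of Chil1 or Chia1 occurred in another gene. How the authors' counting treated reads that match both genes, and whether it used strand, is not given in the sources used here, so the division of UMIs between Chil3 and Chil4 is uncertain. The UMI counts are not divided by gene length.

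Across the libraries, Chil1, a chitin-binding lectin, was detected in nearly every cell, Chil4 was nearly absent from library A and abundant in B and C, Chia1 was present in all 3, and Chil3 was close to the counting limit everywhere. Chil1 measured 2109 CPM in library A (interval 2098 to 2120), 6667 CPM in B (6645 to 6690) and 5491 CPM in C (5471 to 5511). The order was B, C, A. At least 1 Chil1 UMI was found in 98.2%, 97.8% and 95.0% of cells, and in 94.9%, 96.0% and 95.0% after each cell was thinned to 2000 UMIs, which removes differences of depth. Detection of Chil1 was thus near its ceiling in all 3 libraries, and its levels differed through UMIs per cell.

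Chil4, the paralog of Chil3 that also binds without cutting, gave 7 UMIs in the whole of library A, a level of 0.110 CPM (0.0442 to 0.227). Library B had 8883 CPM (8856 to 8909) from 432380 UMIs, and library C had 2021 CPM (2009 to 2033) from 107765. Thinned cells held a Chil4 UMI in 0.0311% of library A, 74.7% of library B and 31.7% of library C. Chil4 therefore had the widest range over libraries of the 4 genes. Retnla followed the reverse order in B and C, at 27.4 CPM in A, 11750 in B and 22524 in C.

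Chia1, the active chitinase, measured 370 CPM in library A (366 to 375), 982 CPM in B (973 to 991) and 768 CPM in C (761 to 776). Thinned cells held a Chia1 UMI in 41.1%, 45.4% and 28.5%. The share in library C was the lowest although its level was above that of A, so no order is read from the shares. Unthinned, the shares were 56.0%, 62.4% and 32.9%.

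Chil3 gave 43 UMIs in library A, 166 in B and 71 in C, levels of 0.675, 3.41 and 1.33 CPM. After thinning, 0.118%, 0.701% and 0.196% of cells held a Chil3 UMI. The alveolar macrophage list (12 genes, Chil3 left out) had no gene at 20 CPM in any library. Its summed level was 9.38 to 10.8 CPM by library, with Cd68 highest at 4.15, 9.14 and 6.71 CPM in A, B and C. Of its genes 3 were at 0 in A, 6 in B and 6 in C, with Marco, Siglecf and Ear2 at 0 in all 3 libraries. Whether the Chil3 UMIs arose from epithelial cells, other cells or reads of Chil4 was not tested. Of the other family genes, Chit1, Chil5, Chil6 and Ovgp1 were below 2 CPM in every library. Chid1, a lysosomal family protein, measured 10.6, 30.3 and 25.7 CPM, and Ctbs, which trims chitobiose ends in lysosomes, 6.11, 8.09 and 8.12 CPM.

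Cells of libraries B and C were next divided by the share of their UMIs that came from Retnla. Cells under 0.1% are called Retnla-low and cells of at least 0.5% Retnla-high, so the classes are ranges of a measured value and not cell types. Library B had 1567 Retnla-low cells (28.0%), 788 between the limits (14.1%) and 3238 Retnla-high cells (57.9%), and library C had 6018 (41.3%), 524 (3.59%) and 8038 (55.1%). In library B the median depth was 6468, 8099.5 and 9280.5 UMIs in that order, and in C it was 3122.5, 2779.5 and 3607. Few cells lay within 20% of a limit: in B 81 just under and 48 just over the lower limit and 188 and 178 around the upper one, and in C 192, 95, 87 and 81. Around the lower limit Chil4 was 6210 CPM just under and 4264 just over in B, and 455 and 261 in C, so the cells just under it did not hold less Chil4. Around the upper limit it was 8654 and 8745 CPM in B and 993 and 1319 in C. Library A had 7 Retnla-high cells, which held 230 Chil1 UMIs, 15 Chia1 UMIs and none of Chil4 or Chil3 among 30818 UMIs. With so few UMIs, the interval of their Chil4 level reached from 0 to 120 CPM.

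In both libraries Chil4, Chia1 and Chil1 were more abundant in Retnla-high than in Retnla-low cells. A gene is counted as higher or lower here if its summed level differed by at least 2-fold with at least 20 CPM in either class, a rule of size and not a test. By that rule 3 of the 4 genes were higher in library B, where 2.23% of the 4879 genes compared were higher, 3.36% lower and 5.60% either. They were also 3 of the 4 in library C, where 1.98% of 4738 genes were higher, 2.57% lower and 4.56% either. Chil3 stayed under 20 CPM. Inside the largest cluster of library B, given further on, Chia1 and Chil1 had log2 folds of 0.15 and 0.60 and missed the 2-fold limit. The median log2 fold over all genes compared was -0.11 in B and -0.07 in C. Ranked by fold with Retnla included, Chil4 was 5 and Chia1 17 of 4880 genes in B, Chil4 was 2 and Chia1 3 of 4739 in C, and Chil1 was 79 and 57.

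**Figure D1:**
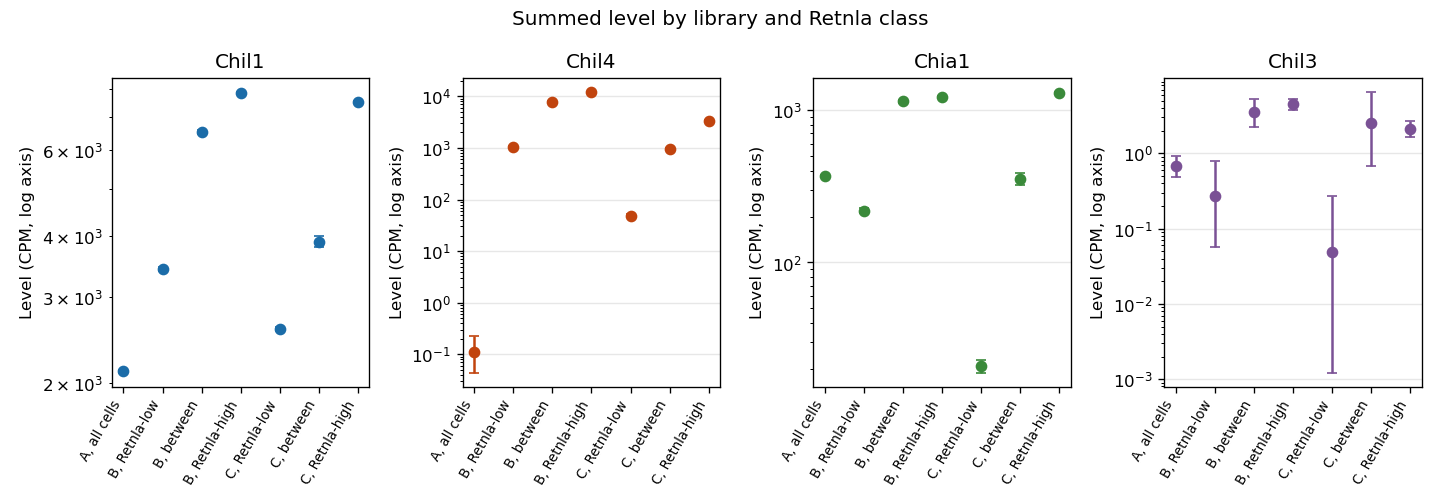
Summed level of each gene in CPM, on log axes that differ between panels, for all cells of library A and the 3 Retnla classes of libraries B and C. Points are sums over cells and bars are exact 95% Poisson intervals; Chil4 spans from 0.110 CPM in A to 11862 CPM in the Retnla-high cells of B, and Chil3 stays under 5 CPM.

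Chil4 measured 1052 CPM in the Retnla-low cells of library B (1033 to 1072), 7880 CPM between the limits and 11862 CPM in Retnla-high cells (11824 to 11900). In library C the same classes had 48.7 CPM (45.7 to 51.8), 963 CPM and 3389 CPM (3369 to 3410). Both libraries showed the same order of classes, at different heights. The log2 fold of high against low was 3.49 in B, a ratio of 11.3 (11.1 to 11.5), and 6.09 in C, a ratio of 69.7 (65.5 to 74.2). With stricter limits on Retnla, under 0.05% and at least 1%, it was 4.67 in B and 7.11 in C. The Retnla-low cells of B thus held more Chil4 per UMI than the cells of C between the limits. The median cell had 142 CPM in the low class of B and 8331 in the high class, and 0 and 336 in C.

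Chia1 measured 219 CPM in the Retnla-low cells of library B (210 to 228), 1135 between the limits and 1220 in Retnla-high cells (1207 to 1232). In library C it measured 20.9 (19.0 to 23.0), 353 and 1288 CPM (1275 to 1300). The Retnla-high levels of the 2 libraries were 1220 and 1288 CPM, so the larger fold of C, 5.88 on the log2 scale against 2.47 in B, came from its lower Retnla-low level. Without the pseudocount, the ratio was 5.58 (5.35 to 5.81) in B and 61.6 (56.0 to 67.8) in C. With the stricter limits the log2 fold was 3.14 in B and 6.44 in C.

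Chil1 differed least. It measured 3419 CPM in the Retnla-low cells of B (3384 to 3453), 6541 between the limits and 7842 in Retnla-high cells (7811 to 7874). In C the levels were 2578 (2557 to 2600), 3892 and 7515 CPM (7484 to 7545). The log2 folds were 1.20 and 1.54, and most Retnla-low cells still held Chil1: the median cell had 3025 CPM in B and 2192 in C. Chil1 was thus present in both classes, while the median Retnla-low cell of both libraries held no Chia1.

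Chil3 gave 3 UMIs in the Retnla-low cells of library B, 23 between the limits and 140 in Retnla-high cells, levels of 0.273, 3.51 and 4.50 CPM. In library C it gave 1, 4 and 66 UMIs, or 0.0483, 2.52 and 2.13 CPM. The ratio of high to low was 16.5 in B with a counting interval of 5.53 to 81.0, and 44.0 in C with an interval of 7.63 to 1764. Chil3 UMIs per 10000 Chil4 UMIs were 2.59 (0.534 to 7.57), 4.46 (2.82 to 6.69) and 3.79 (3.19 to 4.48) in the low, between and high cells of B, and 9.93 (0.251 to 55.5), 26.2 (7.12 to 67.2) and 6.27 (4.85 to 7.98) in C. Within each of the 2 libraries the intervals of this ratio overlapped over the classes. Resting on 3 Chil3 UMIs in the low cells of B, and on 1 and 4 in the low and between cells of C, they are wide. Their overlap therefore cannot show whether the ratio was fixed. In library A there were 43 Chil3 UMIs beside 7 of Chil4.

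Markers of other cells differed between the same classes. The alveolar macrophage list summed to 15.8 CPM in Retnla-low and 8.55 CPM in Retnla-high cells of B, and to 12.5 and 6.99 CPM in C. Most of it was Cd68, at 14.6 and 6.75 CPM in B and 9.18 and 4.73 in C. Marco, Siglecf and Ear2 were at 0 in every class. Of 7 airway secretory markers 3 could be compared, and 2 were higher in Retnla-high cells in both libraries (Scgb1a1, the club cell secretoglobin, and Scgb3a1) and 1 was lower (Hp). In C, 1 of the 3 reached 20 CPM in Retnla-low cells only and 2 in Retnla-high cells only, so none could have been called the other way. In B, 2 reached it in each class, so the direction of some calls was fixed there too. Summed, the 7 markers measured 103 CPM in low and 175 in high cells of B and 58.4 and 97.5 in C. In library A, where Chil4 was nearly absent, they summed to 3331 CPM. The goblet list, of mucus-making cells, summed to 12.2 CPM in low and 58.1 in high cells of B. In C it summed to 5.27 and 58.2 CPM. Its highest gene in Retnla-low cells was at 5.18 CPM in B and 2.56 in C, so its genes could reach 20 CPM only in Retnla-high cells. The calls of higher, for 2 of 2 genes compared in B and 1 of 1 in C, therefore follow from the rule. The ATI list summed to 2303 and 989 CPM in B and to 3239 and 1553 in C, with 4 of 6 genes lower in B (median log2 fold -1.96) and 5 of 7 in C (-1.29). Of the transitional markers, genes of cells passing from ATII to ATI, 7 of 8 were lower in Retnla-high cells in B (median log2 fold -1.93) and 6 of 8 in C (-1.4). Beside these counts, 2.23% of all genes compared were higher and 3.36% lower in B, and 1.98% and 2.57% in C. The part of other cells in the differences of Chil4, Chia1 and Chil1 was not tested beyond the values within clusters given further on.

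Detection differed in the same direction as level. In thinned cells of library B a Chil4 UMI was found in 33.4% of Retnla-low (31.0% to 35.8%), 87.6% of between and 91.3% of Retnla-high cells (90.3% to 92.3%), and in C in 4.58% (4.04% to 5.18%), 27.1% and 51.4% (50.2% to 52.5%). Unthinned, the low and high shares were 63.1% and 97.7% in B and 7.20% and 57.1% in C. Thinned Chia1 shares were 15.1%, 56.9% and 57.1% in B and 2.16%, 22.9% and 47.5% in C. Many Retnla-high cells of C thus gave no Chil4 UMI at 2000 UMIs per cell, which does not show that they lacked the RNA. No cell type known to lack these genes was found to set a background share, and the share in library A, 0.0311% for Chil4, is from another library. Chil1 was found in 86.4% of Retnla-low and 99.9% of Retnla-high cells of B, and in 88.2% and 99.8% in C, and Chil3 in at most 1.02% of any class.

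**Figure D2:**
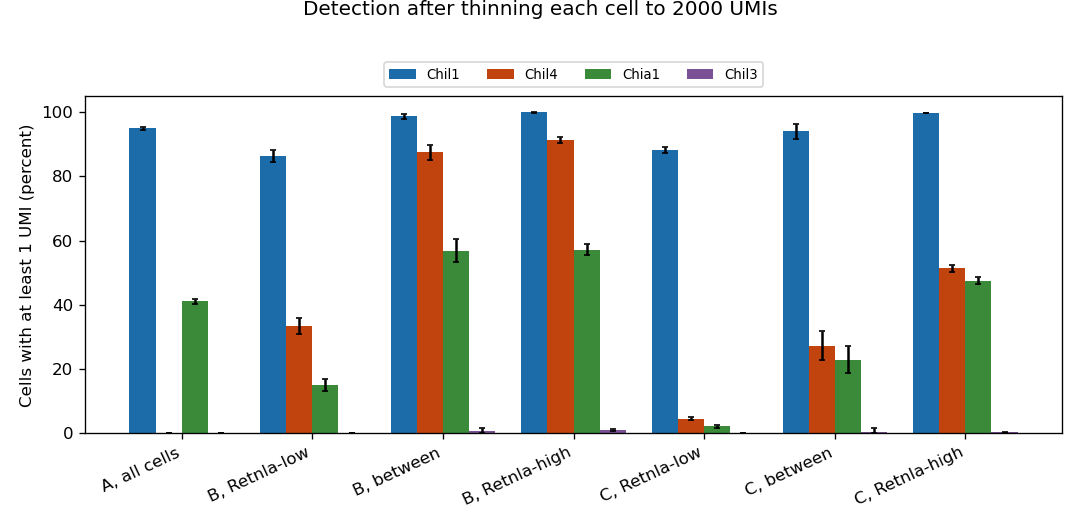
Percent of cells with at least 1 UMI of each gene after thinning every cell to 2000 UMIs, by library and Retnla class; bars start at 0 and error bars are exact 95% binomial intervals. Chil1 lies at 86.4% or above in every class, and Chil4 runs from 4.58% to 91.3% over the classes of B and C.

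Over finer ranges of the Retnla share, Chil4 differed most, as a ratio, between the range under 0.1% as a whole and the next one. Even so, the cells just under that limit did not hold less Chil4 than those just over it. In library B it went from 1052 CPM under 0.1% Retnla to 7099 CPM at 0.1 to 0.25%, 8278, 9634, 10978 and 14208 CPM in the next ranges, and 18906 CPM at 4% or more. In library C it went from 48.7 to 739, 1233, 1313, 1164, 2548 and 5085 CPM over the same ranges, where the last step was the widest in CPM. The sequence was without a reversal in B, and in C the range of 1 to 2% was below both neighbours. Chia1 was almost level in B from 0.1 to 2% Retnla, between 1050 and 1140 CPM, and reached 2048 CPM at 4% or more. In C Chia1 went from 20.9 to 225 and 507 CPM in the lowest 3 ranges and 1981 CPM in the highest. Chil1 was higher in each successive range of both libraries, from 3419 to 10844 CPM in B and from 2578 to 8678 CPM in C. Retnla UMIs are part of each total, which lowers the CPM of all other genes where Retnla is high.

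**Figure D3:**
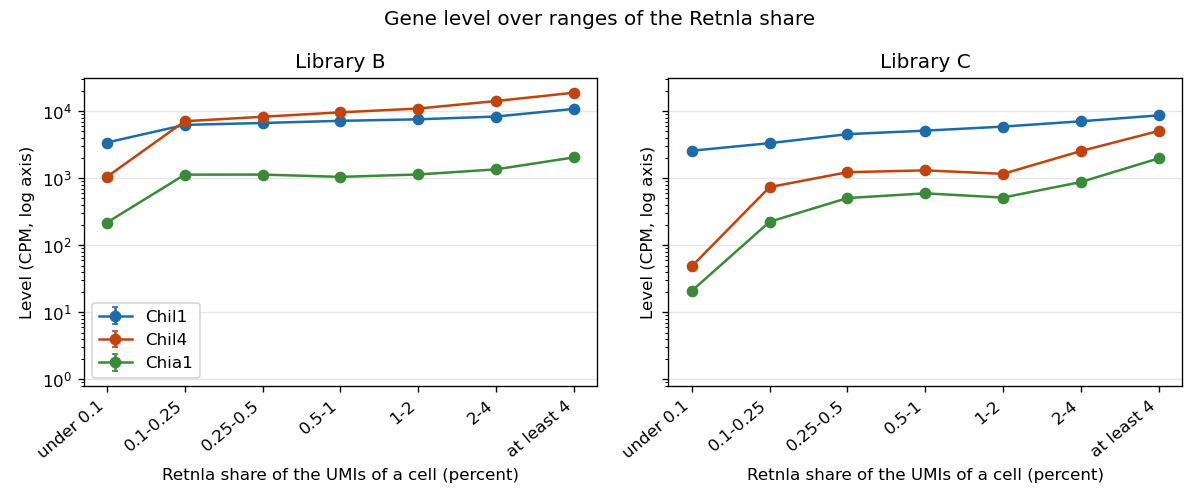
Summed level of Chil1, Chil4 and Chia1 in CPM (log axis) over 7 ranges of the Retnla share of a cell's UMIs, in libraries B and C, with exact 95% Poisson intervals mostly smaller than the points. Chil4 is at 1052 and 7099 CPM in B and at 48.7 and 739 CPM in C in the lowest 2 ranges, and Chil1 is higher in each successive range.

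The proportions between the genes were not fixed. For every 100 Chil4 UMIs there were 20.8 Chia1 UMIs in Retnla-low (19.9 to 21.7), 14.4 in between and 10.3 in Retnla-high cells of B (10.2 to 10.4). In C there were 43.0 (38.3 to 48.2), 36.6 (33.2 to 40.4) and 38.0 (37.6 to 38.4). Chia1 was thus a larger part of the pair in every class of C than in any class of B. For every 100 Retnla UMIs there were 67.2 Chil4 UMIs in the Retnla-high cells of B and 8.82 in those of C.

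Cells of 1 class also varied among themselves. In Retnla-high cells the quartiles of Chil4 were 2615, 8331 and 17126 CPM in B, and 0, 336 and 3319 CPM in C. The tenth of cells with the most of a gene held 32.1% of Chil4 UMIs in B and 59.5% in C, 40.9% and 52.2% of Chia1 UMIs, and 17.9% and 19.2% of Chil1 UMIs. Chil1 was therefore spread more evenly over these cells than Chil4 or Chia1, and Chil4 was least even in C. At 3607 UMIs the median Retnla-high cell of C was shallower than that of B, at 9280.5, which widens such spreads.

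Chil4 and Chia1 were found together in part of the cells. In thinned Retnla-high cells of C, Chil4 was detected in 61.3% of the 3574 cells with a Chia1 UMI (59.7% to 62.9%) and in 42.3% of the 3947 without (40.8% to 43.9%), with both in 29.1% and neither in 30.3% of cells. In B the same shares were 92.0% (90.7% to 93.2%) and 90.3% (88.7% to 91.8%), so detection of 1 gene told little of the other where Chil4 was near its ceiling. Among Retnla-low cells Chil4 was detected in 66.5% of 233 cells with Chia1 and 27.5% of 1312 without in B, and in 29.3% of 116 and 4.04% of 5252 in C. Retnla-low cells with 1 of the 2 genes thus held the other more often than those without it, in both libraries. Depth and class are shared by the cells compared, and these shares are descriptions.

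Cells were clustered on other genes, with the 4 genes and the pathway lists kept out, which gave 35 clusters. Of these 13 held at least 50 cells of a library, giving 18 pairs of a cluster and a library. Clusters are named by number and leading genes. In library B, cluster 3 (Il4i1, Scgb1a1 and Rgs4; 3229 cells) had the most Chil4, Chia1 and Chil1, at 11394, 1267 and 7765 CPM. Cluster 5 (Saa3, Lyz1 and Lyz2, the last 2 lysozymes; 554 cells) had the least Chil4 and Chia1, at 159 and 49.8 CPM, with Chil1 still at 4222 CPM. Cluster 8 (Gsta1, Msln and the ATI genes Ager and Hopx; 183 cells) had the least Chil1, at 1582 CPM. The clusters lowest in Chil4 and in Chil1 were thus different, while cluster 3 was highest in both.

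In library C, Chia1 and Chil4 peaked in different clusters. Cluster 2 (Cbr2, Duoxa1 and St6galnac2; 3335 cells) had 2454 CPM of Chia1 and 2894 CPM of Chil4. Cluster 4 (Dlk1, Fstl4 and Cxcl3; 3110 cells) had 771 CPM of Chia1 and 3699 CPM of Chil4, and the small cluster 3 (86 cells) 895 and 4173 CPM. Retnla was much the same in these 3, at 37104, 37835 and 35425 CPM. Clusters close in Retnla therefore differed about 3-fold in Chia1. Chil1 was highest in cluster 4, at 8163 CPM, and lowest in cluster 8, at 1183 CPM, and cluster 5 had the least Chil4 and Chia1 as in B, at 152 and 85.5 CPM. In library A, Chil4 gave at most 0.11 CPM in its 4 clusters, whereas Chia1 ranged from 306 to 628 CPM and was highest in the 93 cells of cluster 12 (S100a6, Sprr1a and Mmp13), which had the least Chil1, 748 CPM.

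**Figure D4:**
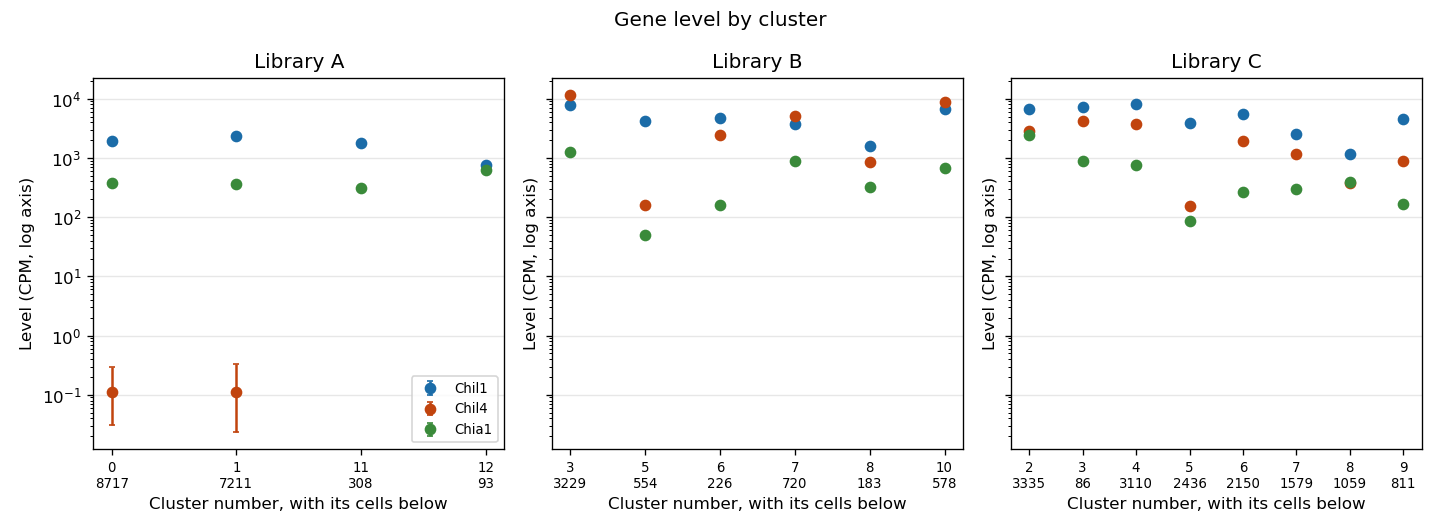
Summed level of Chil1, Chil4 and Chia1 in CPM (log axis) in each cluster with at least 50 cells of a library; numbers under the axis are the cluster and its cells, bars are exact 95% Poisson intervals, and a Chil4 level of 0 in clusters 11 and 12 of library A is not drawn. Cluster 5 has the lowest Chil4 in both B and C, at 159 and 152 CPM.

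Because the Retnla classes held different mixtures of clusters, high and low cells were also set against each other inside a cluster, where both had at least 50 cells. In library C this was possible in 7 clusters. Chil4 was higher in Retnla-high cells of all 7, with log2 folds of 4.75 to 7.60, and so was Chia1, with 4.19 to 6.60. Chil1 was at least 2-fold higher in 6 of 7, with 0.98 in cluster 9 (Ccnb2 and Cenpa, genes of dividing cells) as the exception and 2.17 as the highest.

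In library B only clusters 3 and 7 could be compared. In cluster 7 (led by Ndrg1, with Hmox1, genes of stressed cells) the log2 folds were 2.84 for Chil4, 2.42 for Chia1 and 1.89 for Chil1. In cluster 3 they were 1.28 for Chil4, 0.15 for Chia1 and 0.60 for Chil1, with Chia1 at 1287 CPM in 2575 Retnla-high and 1158 CPM in 135 Retnla-low cells. The 2-fold difference of Chia1 and Chil1 seen over all cells of library B was therefore not seen inside its largest cluster. These comparisons within clusters were chosen after seeing the data.

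The Retnla-low cells of library B were not alike. Chil4 measured 5040 CPM in those of cluster 3, 1765 in cluster 7, 608 in cluster 8, 131 in cluster 5 and 88.6 in cluster 6 (Hist1h1b and Nusap1, genes of dividing cells), and Chia1 1158, 355, 215, 13.5 and 10.4 CPM. Of the 11579 Chil4 UMIs of Retnla-low cells, 5036 lay in the 135 cells of cluster 3 and 4405 in the 477 cells of cluster 7. In library C the Retnla-low cells had Chil4 from 14.0 CPM in cluster 6 to 163 CPM in cluster 7.

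The proportion of Chia1 to Chil4, which the Retnla limits do not set directly, was also read in Retnla-low cells, beside that of the whole library. It differed by class, at 20.8 in low and 10.3 in high cells of B and 43.0 and 38.0 in C. Retnla-high cells held 369185 of the 432380 Chil4 UMIs of B and 105230 of the 107765 of C. The library value is therefore mostly theirs, and a value above it partly restates the class difference. In the Retnla-low cells of clusters 5 and 6 of library B there were 10.3 (7.67 to 13.7) and 11.8 (7.20 to 18.3) Chia1 UMIs per 100 Chil4 UMIs, beside 11.1 in the library. In cluster 3 there were 23.0 (21.5 to 24.5), in cluster 7 20.1 (18.7 to 21.6) and in cluster 8 35.4 (30.4 to 41.2). The intervals of clusters 5 and 6 thus held the value of their library, and those of the other 3 lay above it. In library C, with 38.0 in all cells, the intervals held that value in clusters 5, 6, 7 and 9, at 29.9 (20.6 to 42.7), 34.0 (18.7 to 58.9), 34.4 (28.9 to 40.8) and 27.3 (9.05 to 69.4). The intervals of clusters 2, 4 and 8 lay above it, around 72.6, 160.0 and 65.4. The value of cluster 4 rests on 16 Chia1 UMIs in 3 cells, 14 of them in 1 cell. Its 10 Chil4 UMIs lay in 5 cells, with 6 in 1 cell. Because the interval covers counting error only, that value cannot be read as a trait of cluster 4. In cluster 7 of C the 532 Chil4 UMIs of Retnla-low cells lay in 112 of 1152 cells, with up to 50 in 1 cell. RNA free in a droplet suspension can reach all cells of a library, and its part in the low levels was not tested.

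The genes around the chitinases were read from gene lists by the same rule of size. Of the chitinase family, 4 of 10 genes could be compared in each library: the 3 above were higher and Chid1 was not called, at log2 folds of 0.51 in B and 0.24 in C, for a list median of 1.84 in B and 3.71 in C. Of the genes that break down chitin and recycle N-acetylglucosamine, 6 of 11 could be compared and only Chia1 was called in each library. The shares over all genes compared were 2.23% higher and 3.36% lower in B, and 1.98% and 2.57% in C. The hexosaminidase subunit gene Hexa had a log2 fold of 0.35 in B and -0.35 in C, and the recycling enzymes Renbp, Amdhd2 and Nagk lay between -0.62 and 0.50. Chia1 was thus the only gene of that route past the size rule in these cells.

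Of 6 genes for reported binding partners of Chil1, 5 could be compared in each library, with 0 called higher and 2 lower. Over all genes compared, 2.23% were higher and 3.36% lower in B, and 1.98% and 2.57% in C. The gene not compared, Il13ra2, named after its value was seen, stayed under 20 CPM. It was at 11.1 CPM in Retnla-high and 1.64 in Retnla-low cells of B, a ratio of 6.78 (4.22 to 11.6). In C it was at 6.99 and 0.580 CPM, a ratio of 12.1 (6.76 to 23.7). Ager, an ATI gene for a receptor of the immunoglobulin family, was at 61.7 CPM in Retnla-high and 563 in Retnla-low cells of B and at 314 and 763 in C. Lgals3, a galectin that binds sugars on other proteins, was at 132 and 526 CPM in B and 85.3 and 382 in C. The syndecan Sdc1, the receptor subunit Tmem219 and the hyaluronan receptor Cd44 had log2 folds of -0.12 to 0.90 and were not called.

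Of the 26 other IL-4 and IL-13 response genes, 7 could be compared in B and 5 in C. In Retnla-high cells 6 of the 7 were higher in B (list median 1.17) and 3 of the 5 in C (1.58). Over all genes compared, 2.23% were higher in B and 1.98% in C. Socs2, a brake on cytokine signalling, was at 213 CPM in high and 76.0 in low cells of B and 194 and 64.3 in C. The anion exchanger gene Slc26a4 was at 155 and 75.2 in B and 208 and 54.8 in C, the histidine decarboxylase gene Hdc at 124 and 54.7 in B and 139 and 38.1 in C, and the kinase gene Pim1, which was not called, at 32.2 and 34.2 in B and 39.8 and 21.5 in C. Itln1, an intelectin gene named after its value was seen, had a log2 fold of 3.61 in B, with 0.727 CPM in low cells. That fold was above the 3.49 of Chil4 there, and Itln1 was under 20 CPM in C. In B, Itln1 and Il4i1 reached 20 CPM only in Retnla-high cells, so they could not have been called lower. Il4i1 was at 52.0 CPM in high and 9.82 in low cells. Of the receptor and signalling genes only Jak1 reached 20 CPM, and it was not called, at 0.58 and 0.25.

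Likeness of pattern was measured over the 18 pairs of a cluster and a library, as Pearson's r of log2(CPM + 1) against 7563 genes. The points share libraries, so r largely reflects differences between libraries. Chil4 was most like Ssr4, Gm1673 and Ndufb5, each at 0.96, Chil1 most like Fcer2a (0.93), Slc25a35 (0.91) and Fabp5 (0.91), and Chia1 most like Ccdc68 (0.75) and Tcn2 (0.75). Among the 4 genes r was 0.72 for Chil1 with Chil4, 0.26 for Chil4 with Chia1 and 0.20 for Chil1 with Chia1. The nearest genes of Chia1 thus had lower r than those of Chil1 and Chil4. Chil3 was under 20 CPM at every point and was not read this way.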

How the data were processed

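Single cells were measured with 10x Genomics 3′ chemistry v3.1, per the labels. The deposited values are raw UMI counts in a single gene-by-barcode matrix, and all were found to be whole numbers. The submitters' processing notes name bcl2fastq, Cell Ranger 6.0.1 and the builds GRCm38 and mm10. The tag libraries were not used here.

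GENCODE named 52403 gene identifiers. The 233 others hold 0.0209% of UMIs. Cells with at least 1000 UMIs, 500 genes and at most 15% mitochondrial UMIs were kept, which removed 44 barcodes. No doublet caller was run. Counts were summed per library and class as CPM. Folds are log2 with a pseudocount of 1 CPM, and ratios and their exact conditional intervals carry none. Intervals of shares are Clopper-Pearson. UMIs were thinned to 2000 per cell, leaving out 288, 29 and 1289 shallower cells of A, B and C. Clustering used 2000 variable genes, 30 principal components, 20 neighbours and the Leiden method at resolution 0.6 (leidenalg 0.10.2, Python 3.11.15). edgeR 4.0.16 gave TMM factors only. The fold computation was tested on simulated data. Promoters are from RefSeq (GRCm38.p6), and all 5 genes searched were matched.

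The genes, lists, classes and size rule were chosen with earlier results of these data known. Named are the 4 genes, the 5 genes of a pathway list with most UMIs, and the 3 genes most like each of the 4; genes that lead clusters, other family genes and marker genes were named after their values were seen. Some genes that this rule names are not reported here.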

Additional observations from a re-analysis of the deposited data

How the results depend on the processing

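Over 11 alternatives per library, 3 to 4 of the 4 genes were higher in Retnla-high cells, and Chil3 joined the others only without the filter on low values. No direction reversed. The log2 folds ranged over those alternatives from 1.19 to 1.35 for Chil1, 3.15 to 4.67 for Chil4, 2.10 to 3.14 for Chia1 and 0.50 to 2.75 for Chil3 in library B. In library C they ranged from 1.54 to 1.65, 5.78 to 7.11, 5.39 to 6.44 and 0.27 to 1.68. The highest Chil4 and Chia1 folds in both libraries came with stricter limits on Retnla, under 0.05% and at least 1%. TMM scaling shifted ratios by 0.16 in B and 0.08 in C on the log2 scale, and folds of genes near the pseudocount, such as Chil3, by less. Without the low-value filter, 259 genes were higher and 437 lower in B, and 237 and 289 in C, since more genes are compared. With a pseudocount of 10 CPM, 66 were higher and 102 lower in B, and 78 lower in C. Leaving out the 5% of cells with the most UMIs, where doublets gather, kept Chil1, Chil4 and Chia1 higher in both libraries. No paired analysis was possible because each group has 1 library and its barcodes match no label. A planned comparison of protein sequences was not run. Depth limits Chil3: its Retnla-low levels rest on 3 UMIs in B and 1 in C.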
